A study of Mus musculus with 32 samples.

Results

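Cell cycle and DNA replication genes were followed in cultured mouse islets as a group of 31 genes, picked by symbol: 10 cyclins and cyclin-dependent kinases (CDKs), 11 genes of mitosis, 7 genes of replication licensing and the replication fork, and 3 genes of nucleotide synthesis. All 31 were found among the 36595 genes of the deposited table, and all 31 passed the filter on low counts, which left 16428 genes for testing. Islets came from male and female mice, 10 weeks old, on a C57BL/6NHsd background. In hIAPP mice the mouse gene for islet amyloid polypeptide (IAPP), a hormone of beta cells, was replaced by its human counterpart, introduced by homologous recombination. The mIAPP mice were wild-type littermates with mouse Iapp. After collagenase isolation and a night at 11.1 mM glucose, islets of each genotype spent 48 h at 11.1 or 16.7 mM glucose, which gave 4 groups of 8 libraries: hIAPP at 16.7 mM, mIAPP at 16.7 mM, hIAPP at 11.1 mM and mIAPP at 11.1 mM. Each of 8 experiment sets held 1 library of every group, and how many animals supplied a set is not stated. The p-values therefore measure how the differences between groups vary from set to set.

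D-type cyclins with CDK4 open the cell cycle by phosphorylating the retinoblastoma protein, which frees E2F factors to switch on cyclin E, the MCM helicase subunits, PCNA and ribonucleotide reductase. Later genes, such as those for cyclin B, CDK1, the Aurora and Polo kinases and the spindle checkpoint proteins, are switched on before and during mitosis. Adult beta cells divide rarely, rely on cyclin D2 and CDK4 when they do, and are known to enter the cycle more often when glucose is raised.

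Library totals ran from 16.1 to 43.7 M counts. Levels are given as CPM (counts scaled to a common library total) after TMM, a method that corrects for differences in library composition. The beta cell markers were abundant in every group: the 11 found summed to a median between 1.798e+05 and 2.23e+05 CPM. Of these 11, 8 fell and 3 rose with glucose in hIAPP islets (median log2 change -0.38), 4 fell and 3 rose in mIAPP islets (-0.11), and at 16.7 mM 7 were lower in hIAPP than in mIAPP islets (-0.40). Transcripts of the insulin genes made up 17.9 to 20.2% of a group's counts in the mean. The share of counts from mitochondrially encoded genes moved with glucose and genotype: at 16.7 mM it was 4.06 ± 1.63% (SD, n = 8) for hIAPP islets and 11.3 ± 11.2% for mIAPP islets, and at 11.1 mM it was 16.6 ± 7.83% and 18.2 ± 11.6%. Because the share moved with glucose, counts of calls are also given with the share as a covariate and in the 18 libraries with under 10% of it. In hIAPP islets the share ran from 2.7 to 6.8% at 16.7 mM and from 5.2 to 27.2% at 11.1 mM. Share and glucose thus nearly coincided there, and the fit with the covariate cannot fully tell their changes apart. In hIAPP and mIAPP islets alike, a call lost in these settings is not evidence of no change. In hIAPP islets the covariate and the limit of 10% took the glucose calls over all genes from 65.5% to 19.4% and 22.6%. In mIAPP islets they took them from 47.5% to 35.3% and 30.2%.

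Raising glucose moved many of the 31 genes, mostly upward, in both genotypes. In hIAPP islets 15 genes rose and 3 fell at 16.7 against 11.1 mM glucose (edgeR quasi-likelihood test, Benjamini-Hochberg adjusted p under 0.05), which is 58.1% of the group, while 65.5% of all genes tested passed. In mIAPP islets 12 rose and 2 fell, or 45.2%, beside 47.5% of all genes. The shares called were thus no larger than the background. Calls in the upward direction were more frequent than over all genes: 48.4% of the group rose in hIAPP islets beside 32.2% of all genes, and 38.7% in mIAPP islets beside 24.9%. Downward calls took 9.68% and 6.45% of the group, beside 33.3% and 22.7% of all genes. The 31 genes and the lists below were chosen with earlier results of these data known. The upward excess is thus not independent of those results. With the mitochondrial share as a covariate, 1 of the 31 rose in hIAPP islets, beside 1643 of 16428 genes. The upward excess was thus not kept there. In mIAPP islets 6 of the 31 rose with the covariate, beside 3000 of 16428 genes, close to the share of all genes. In libraries under 10% of mitochondrial counts, 6 and 8 of the 31 rose, beside 2047 and 2719 of 17145 genes. In both genotypes that was a larger share of the 31 than of all genes. The median log2 fold change of the 31 genes was 0.35 in both genotypes, where that of all genes was -0.02 in hIAPP and -0.03 in mIAPP islets. Whole islets were sequenced, so more transcript per cell and more cells of a type that holds the transcript cannot be told apart.

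With glucose, 11 genes rose in both genotypes: Ccnd1, Ccne1, Ccnb1, Mki67, Mcm2, Mcm3, Mcm4, Mcm5, Pcna, Rrm1 and Rrm2. Cdk4 and Mcm7 fell in both. How many of all genes were called in both genotypes, or in neither, was not counted, so this overlap has no background beside it. Ccnd3, Top2a, Bub1 and Tpx2 rose and Aurka fell past the threshold in hIAPP islets, and Ccnd2 rose in mIAPP islets. None of these is shown to differ between the genotypes, since 0 of the 31 genes passed the test of the difference of the glucose responses. In neither genotype did these 12 genes pass: Ccne2, Ccna2, Cdk1, Ccnb2, Foxm1, Aurkb, Bub1b, Birc5, Cdc20, Plk1, Mcm6 and Tyms. With the mitochondrial share as a covariate, 2 genes passed in hIAPP islets (Ccnd1 up, Mcm7 down) and 8 in mIAPP islets, of which 7 were among the 14 and Plk1, which fell, was not. In the libraries with under 10% of mitochondrial counts, 7 passed in hIAPP and 9 in mIAPP islets, and all 18 and 14 genes called from the full data kept the sign of their change there; only 2 hIAPP and 3 mIAPP libraries at 11.1 mM met that limit.

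**Figure D1:**
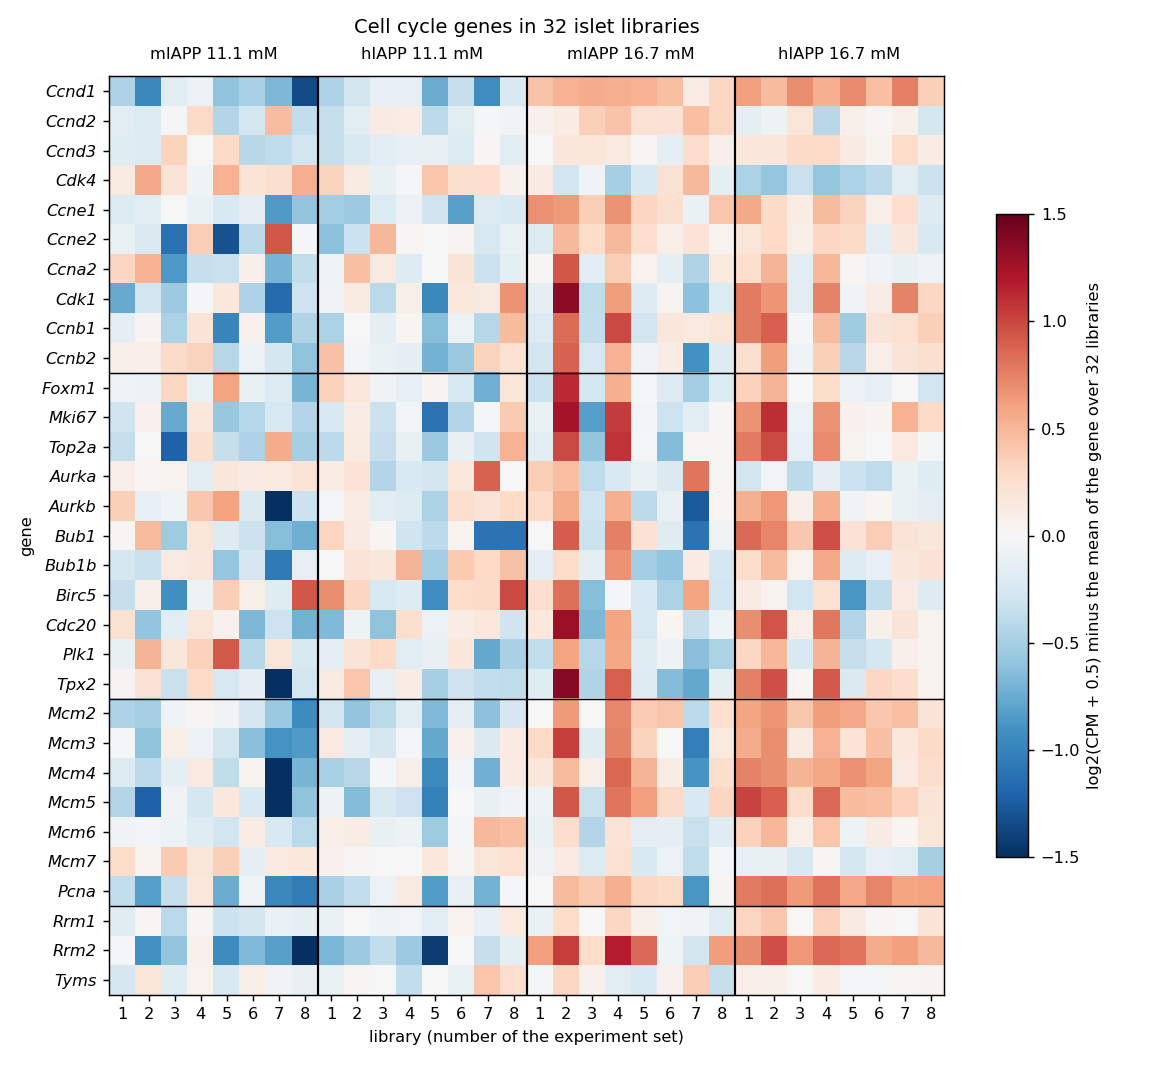
Level of each of the 31 genes (vertical axis, 4 blocks by role) in each of the 32 libraries (horizontal axis, numbered by experiment set within 4 groups), coloured by log2(CPM + 0.5) minus the gene's mean over all libraries, with values past either end of the colour scale drawn in its end colour. Ccnd1, Pcna, Rrm2 and the Mcm2 to Mcm5 genes are redder at 16.7 mM, Cdk4 and Mcm7 are bluer there, and the mitotic block is darkest red in sets 2 and 4 at 16.7 mM and in set 1 of hIAPP islets.

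**Figure D2:**
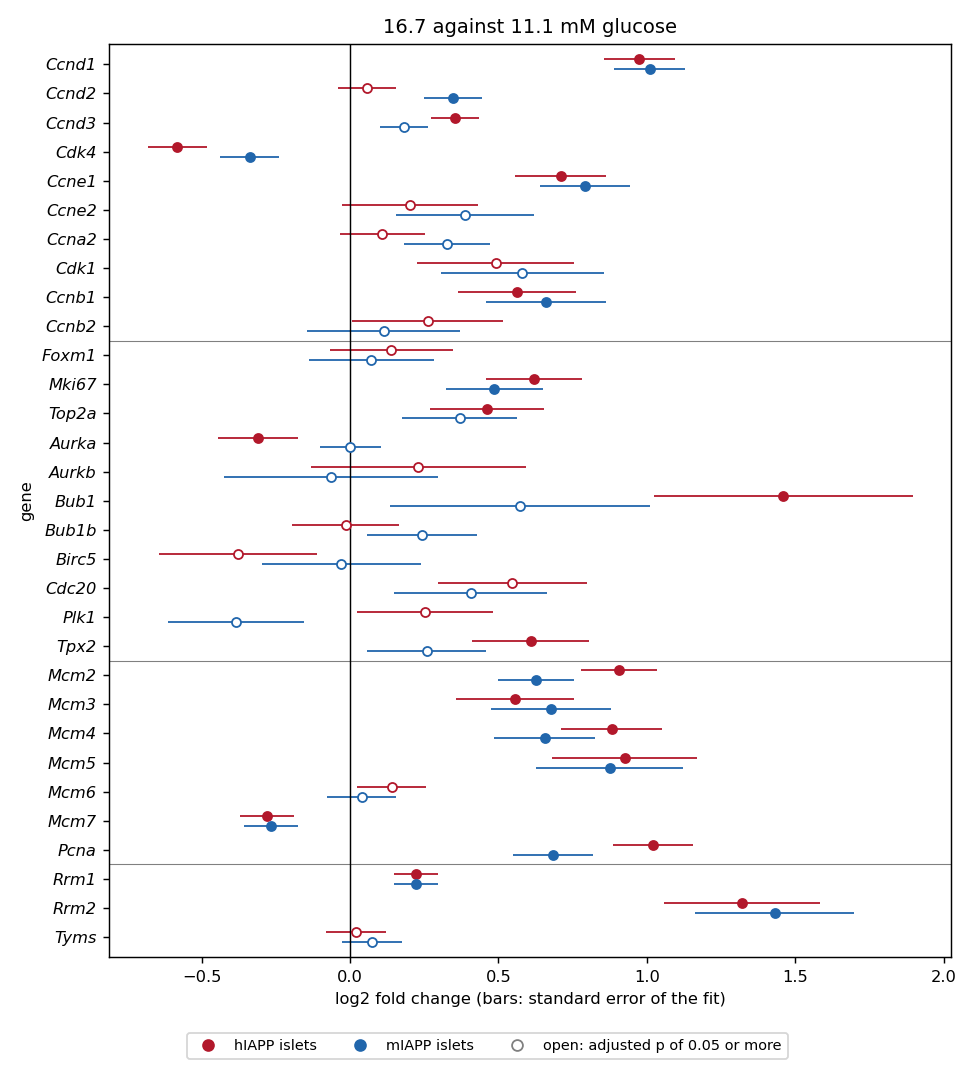
Log2 fold change at 16.7 against 11.1 mM glucose (horizontal axis) for each gene (vertical axis), in hIAPP (red) and mIAPP islets (blue), with the standard error of the fit as bars. Filled points passed an adjusted p of 0.05: 18 genes in hIAPP and 14 in mIAPP islets.

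Among the G1 cyclins, Ccnd1 (cyclin D1, ENSMUSG00000070348, GRCm38 chromosome 7, 144929931 to 144939925) was the 1 gene of the 31 (3.23%) whose glucose groups were apart in both genotypes; of all genes tested, 2.32% were apart upward in both and 1.01% downward. In hIAPP islets 8 of the 31 were apart, 25.8% beside 22.7% of all genes: 7 upward (22.6%, beside 14.3%) and Cdk4 downward (3.23%, beside 8.38%). In mIAPP islets Ccnd1 was the 1 gene apart, 3.23% beside 4.05% of all genes (2.64% upward and 1.41% downward). The total shares were thus near the background. At 11.1 mM its lowest, median and highest levels were 88.6, 137 and 156 CPM in hIAPP and 66.8, 116 and 159 CPM in mIAPP islets. At 16.7 mM they were 218, 253 and 286 CPM in hIAPP and 184, 238 and 249 CPM in mIAPP islets. Every library at 16.7 mM thus stood above every library at 11.1 mM, in both genotypes. The rise was 1.96-fold in hIAPP islets (log2 0.97 ± 0.12, SE, edgeR adjusted p = 1.7e-07) and 2.02-fold in mIAPP islets (1.01 ± 0.12, edgeR adjusted p = 2.29e-07), in 8 of 8 sets each. Ccnd1 was the 1 gene of the 31 that passed with the mitochondrial covariate in both genotypes and rose there, at 0.64 in hIAPP and 0.88 in mIAPP islets. Its locus, introns included, overlaps 1771 bases of the locus of LTO1 on the other strand, a gene at 48.8 CPM. Although the library kit keeps strand, the labels do not say that the counting used it.

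Ccnd2 (cyclin D2, chromosome 6, 127125162 to 127152193) was the most abundant of the group per length of exon, at a mean of 72.8 CPM per kb beside 38.7 for Ccnd1 and 4.37 for Ccnd3. At 11.1 mM it ran from 515 over 626 to 731 CPM in hIAPP islets (lowest, median and highest) and from 498 over 595 to 928 CPM in mIAPP islets. At 16.7 mM the values were 506, 659.5 and 764 CPM in hIAPP and 704, 811 and 919.5 CPM in mIAPP islets. The glucose levels overlapped in both genotypes. Ccnd2 rose in mIAPP islets by 0.35 ± 0.10 (log2, adjusted p = 0.0053), higher in 7 of 8 sets, and its change in hIAPP islets was 0.06 ± 0.10 (adjusted p = 0.62). The difference of these changes was -0.29 ± 0.14 with an adjusted p of 0.26. Ccnd3 (cyclin D3) stood at 29.5, 34 and 38.6 CPM at 11.1 mM and 39.1, 42.7 and 46.5 CPM at 16.7 mM in hIAPP islets, with no overlap. Its rise was 0.35 ± 0.08 on the log2 scale (adjusted p = 0.00056). In mIAPP islets its change was 0.18 ± 0.08 (adjusted p = 0.068), and the difference did not pass either (0.17 ± 0.12, adjusted p = 0.45).

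Cdk4 (chromosome 10, 127063534 to 127067920), the kinase partner of the D cyclins, fell while Ccnd1 rose. In hIAPP islets it went from 136, 167.5 and 196.5 CPM (lowest, median and highest) at 11.1 mM to 98, 109 and 131 CPM at 16.7 mM. In mIAPP islets it went from 140, 172 and 217 to 104, 138 and 206 CPM. The hIAPP groups did not overlap and the mIAPP groups did. The log2 change was -0.58 ± 0.10 in hIAPP islets (edgeR adjusted p = 2.02e-05, lower in 8 of 8 sets) and -0.34 ± 0.10 in mIAPP islets (edgeR adjusted p = 0.0075, lower in 6 of 8). Without set 2 the mIAPP change was -0.26 with an adjusted p of 0.052, and with the mitochondrial covariate neither passed (-0.205 in hIAPP and -0.195 in mIAPP islets). The Cdk4 locus shares 641 bases with that of Tspan31, a gene at 70.5 CPM on the other strand.

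Ccne1 (cyclin E1, the S phase activator of CDK2) rose 1.64-fold in hIAPP islets (0.71 ± 0.15, edgeR adjusted p = 0.00025) and 1.73-fold in mIAPP islets (0.79 ± 0.15, edgeR adjusted p = 0.00015). Its levels were 1.38, 2.26 and 2.61 CPM (lowest, median and highest) at 11.1 mM and 2.39, 3.48 and 4.41 CPM at 16.7 mM in hIAPP islets. The mIAPP values were 1.34, 2.42 and 2.82 CPM at 11.1 mM and 2.59, 3.84 and 4.81 CPM at 16.7 mM. Ranges overlapped in both genotypes, and the higher value was at 16.7 mM in 8 of 8 sets of each. Ccne2 (cyclin E2) did not pass, at 0.20 ± 0.23 and 0.39 ± 0.23, and ranged widest in mIAPP islets at 11.1 mM, from 1.52 to 9.07 CPM; 5622 bases of its locus lie within Ints8 on the other strand.

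Of the cyclins of S phase and mitosis, Ccnb1 (cyclin B1) rose, by 0.56 ± 0.20 in hIAPP islets (edgeR adjusted p = 0.015) and 0.66 ± 0.20 in mIAPP islets (edgeR adjusted p = 0.0089), in 7 of 8 sets each. It was a low transcript: its median was 1.6 CPM at 11.1 mM and 2.27 CPM at 16.7 mM in hIAPP islets, and 1.36 and 2.02 CPM in mIAPP islets. Its ranges overlapped. Without set 1 or without set 2 the hIAPP change was 0.41 or 0.49 and missed the threshold (adjusted p = 0.079 and 0.061). Of the Ccnb1 transcript's stretches of 31 bases, 27.6% also occur in another gene, mostly the pseudogene Ccnb1-ps, which the table lists at 0.0055 CPM. Ccna2 (cyclin A2), Cdk1 (its mitotic kinase partner) and Ccnb2 (cyclin B2) did not pass in either genotype; their changes lay between 0.11 and 0.58, and adjusted p values between 0.063 and 0.74.

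**Figure D3:**
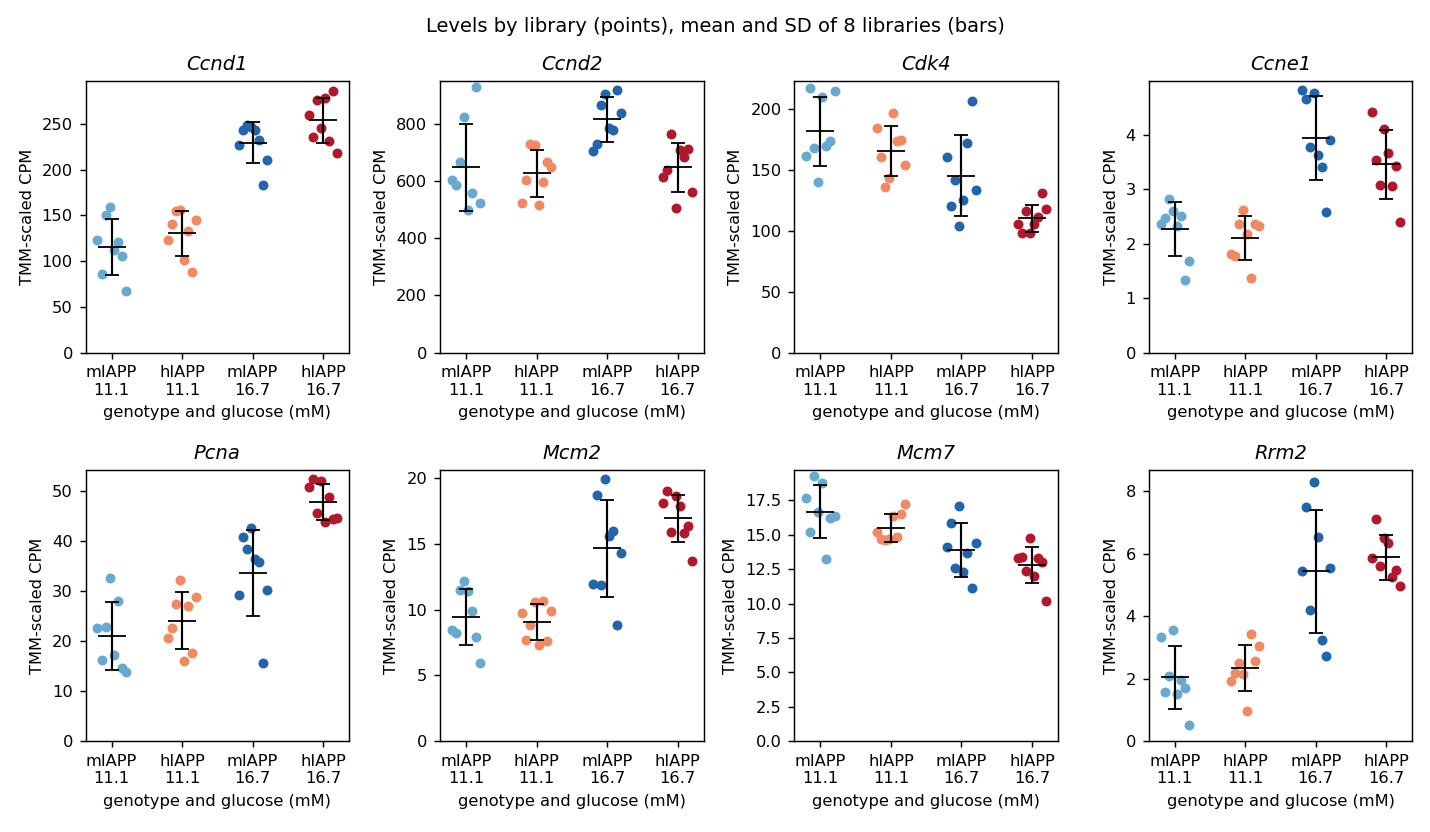
TMM-scaled CPM (vertical axis, from 0) of 8 genes in every library (points), by genotype and glucose level (horizontal axis), with the mean and SD of 8 libraries as bars. Ccnd1 at 16.7 mM lies wholly above 11.1 mM, Cdk4 and Mcm7 lie lower at 16.7 mM, and Pcna in hIAPP islets at 16.7 mM (43.7 to 52.2 CPM) lies above all mIAPP libraries.

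Most replication genes of the group rose with glucose. The MCM2 to MCM7 proteins form the ring-shaped helicase that is loaded on origins in G1, and PCNA is the sliding clamp of the DNA polymerases. Of these 7 genes 5 rose and 1 fell in each genotype, with the same genes in both: 71.4% rose, beside 32.2% of all genes in hIAPP and 24.9% in mIAPP islets, and 14.3% fell, beside 33.3% and 22.7%. The covariate left 0 up and 1 down in hIAPP islets and 2 up and 1 down in mIAPP islets. Of all 16428 genes it left 1643 up and 1538 down in hIAPP islets, and 3000 up and 2805 down in mIAPP islets. Under 10% of mitochondrial counts 3 of the 7 rose and 0 fell in each genotype. There, of 17145 genes, 2047 rose and 1834 fell in hIAPP islets, and 2719 rose and 2462 fell in mIAPP islets. Mcm2 rose by 0.91 ± 0.13 in hIAPP (adjusted p = 1.2e-06) and 0.63 ± 0.13 in mIAPP islets (edgeR adjusted p = 0.00028), Mcm4 by 0.88 ± 0.17 and 0.66 ± 0.17 (adjusted p = 8.06e-05 and 0.0027), and Mcm5 by 0.93 ± 0.25 and 0.88 ± 0.25 (adjusted p = 0.0019 and 0.0054). Mcm3 rose by 0.56 ± 0.20 and 0.68 ± 0.20 (adjusted p = 0.017 and 0.0079), and its mIAPP call was lost without set 2 (0.50, adjusted p = 0.056). Mcm6 did not pass, at 0.14 ± 0.12 and 0.04 ± 0.12 (adjusted p = 0.29 and 0.8), and Mcm7 fell, with log2 changes of -0.28 ± 0.09 and -0.27 ± 0.09 (adjusted p = 0.0096 and 0.0195).

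The MCM genes moved in both directions, so their upstream sequences are set side by side. The 150 bases before the RefSeq start (GRCm38.p6, gene strand, 5′ to 3′) are shown for the MCM genes whose printed stretch holds no exon base, 3 that rose and 2 that did not. Capitals mark the words searched on both strands: TTTGAA and TTCGAA (the CHR element known from genes of late cell cycle), CCAAT, and the E2F words TTTCCCGC, TTTGGCGC, TTTCGCGC and TTTGCCGC, which can overlap each other.
Mcm2, chr6:88898781-88898930, minus strand: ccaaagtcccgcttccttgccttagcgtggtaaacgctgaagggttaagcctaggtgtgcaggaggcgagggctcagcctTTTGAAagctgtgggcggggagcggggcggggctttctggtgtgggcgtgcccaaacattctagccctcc
Mcm3, chr1:20820313-20820462, minus strand: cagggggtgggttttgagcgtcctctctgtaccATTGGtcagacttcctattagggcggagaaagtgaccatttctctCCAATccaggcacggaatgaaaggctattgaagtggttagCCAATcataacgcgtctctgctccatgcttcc
Mcm5, chr8:75109359-75109508, plus strand: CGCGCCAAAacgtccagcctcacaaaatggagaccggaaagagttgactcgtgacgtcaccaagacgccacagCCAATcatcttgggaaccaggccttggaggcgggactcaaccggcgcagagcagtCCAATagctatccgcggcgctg
Mcm6, chr1:128359706-128359855, minus strand: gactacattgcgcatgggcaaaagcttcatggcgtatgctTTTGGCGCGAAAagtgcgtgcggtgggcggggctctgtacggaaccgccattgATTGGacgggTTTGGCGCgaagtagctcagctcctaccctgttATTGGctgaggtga
Mcm7, chr5:138171267-138171416, minus strand: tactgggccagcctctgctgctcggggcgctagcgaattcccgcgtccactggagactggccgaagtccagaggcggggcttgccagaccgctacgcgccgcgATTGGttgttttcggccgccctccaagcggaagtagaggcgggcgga
In the 250 bases before the start, Mcm5 (which rose) and Mcm6 (which did not pass) held E2F words, Mcm2 held a CHR word, and each of the 5 held a CCAAT word. Mcm7 has a second RefSeq start, not printed because exon bases fill its stretch, with an E2F and a CHR word. The Mcm5 match begins before the first base shown, and the CCAAT word of Mcm2 lies outside the shown stretch. A RefSeq entry was matched for 23 of the 31 genes. CCAAT was found in 19 of these 23 (82.6%) beside 37.5% of 27025 RefSeq genes, an E2F word in 4 (17.4%) beside 2.16%, and a CHR word in 8 (34.8%) beside 19.6%. Of the replication genes, 3 of 6 had an E2F word. A match is a description of the letters and does not show binding.

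Mcm2 (ENSMUSG00000002870, chromosome 6, 88883474 to 88898780) ran from 7.35 over 9.28 to 10.7 CPM (lowest, median and highest) in hIAPP islets at 11.1 mM and from 13.7 over 17.1 to 19 CPM at 16.7 mM. In mIAPP islets the values were 5.93, 9.18 and 12.2 CPM against 8.84, 14.9 and 19.9 CPM. The hIAPP groups were apart and the mIAPP groups overlapped, though 8 of 8 sets were higher at 16.7 mM in both. Mcm4 and Mcm5 were also apart in hIAPP islets and overlapped in mIAPP islets. The mIAPP library of set 7 at 16.7 mM, which held 37% mitochondrial counts, was the lowest of its group for 5 of the 7 replication genes. With the mitochondrial covariate the hIAPP change was 0.365 for Mcm2 and 0.233 for Mcm4, no longer called, and it turned negative for Mcm3 (-0.437) and Mcm5 (-0.114), also not called. In libraries under 10% of mitochondrial counts Mcm2, Mcm4 and Pcna passed in both genotypes.

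Mcm7 (chromosome 5, 138164583 to 138172422) ran from 14.6 over 15 to 17.2 CPM in hIAPP islets at 11.1 mM and from 10.2 over 13.2 to 14.8 CPM at 16.7 mM. The mIAPP values were 13.2, 16.5 and 19.3 against 11.1, 13.9 and 17.1 CPM. Groups overlapped in both genotypes, and Mcm7 was lower at 16.7 mM in 7 of 8 hIAPP and 5 of 8 mIAPP sets. Its mIAPP change missed the threshold without set 1 (-0.26, adjusted p = 0.051), set 3 (-0.22, adjusted p = 0.077) or set 5 (-0.21, adjusted p = 0.085). With the mitochondrial covariate it was -0.51 in hIAPP and -0.36 in mIAPP islets, and passed in both. The gene overlaps 421 bases of Ap4m1 (32.7 CPM) and 64 of Cops6 (43 CPM) on the other strand and carries 3 microRNA genes. The pseudogene Gm5487, listed at 0.0053 CPM, holds 24.4% of its 31-base stretches.

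Pcna (ENSMUSG00000027342, chromosome 2, 132249162 to 132253314) rose 2.03-fold in hIAPP and 1.61-fold in mIAPP islets. At 11.1 mM it stood at 16.1, 24.7 and 32.2 CPM (lowest, median and highest) in hIAPP and 13.8, 19.9 and 32.6 CPM in mIAPP islets. At 16.7 mM it stood at 43.7, 47.2 and 52.2 CPM in hIAPP and 15.7, 36.1 and 42.5 CPM in mIAPP islets. All hIAPP libraries at 16.7 mM were above all others of the study. The log2 changes were 1.02 ± 0.14 (SE, adjusted p = 4.8e-07) in hIAPP and 0.69 ± 0.14 in mIAPP islets (edgeR adjusted p = 0.0002), in 8 of 8 sets each. With the mitochondrial covariate the hIAPP change was 0.48 and no longer called, while the mIAPP change, 0.45, still passed. Pcna-ps2, a pseudogene at 0.038 CPM, shares 23.3% of the 31-base stretches.

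Ribonucleotide reductase makes the building blocks of DNA, and its regulated subunit Rrm2 (chromosome 12, 24708241 to 24714146) had the largest change of the 3 nucleotide genes in both genotypes. Rrm2 ran from 0.95 over 2.34 to 3.42 CPM in hIAPP islets at 11.1 mM and from 4.95 over 5.73 to 7.1 CPM at 16.7 mM. In mIAPP islets it ran from 0.53 over 1.84 to 3.57 CPM and from 2.72 over 5.49 to 8.29 CPM. The hIAPP groups were apart, the mIAPP groups overlapped, and 8 of 8 sets were higher at 16.7 mM in both. The rise was 2.5-fold in hIAPP islets (1.32 ± 0.26, edgeR adjusted p = 0.00011) and 2.69-fold in mIAPP islets (1.43 ± 0.27, edgeR adjusted p = 0.00011). Rrm1, the large subunit, rose less, by 0.22 ± 0.07 in both genotypes (adjusted p = 0.011 and 0.016). In mIAPP islets the Rrm1 call was lost without set 3, 4 or 5 (0.19 to 0.195, adjusted p = 0.056 to 0.066). Tyms (thymidylate synthase) did not pass, at 0.02 ± 0.10 and 0.07 ± 0.10 (adjusted p = 0.87 and 0.57).

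Of the 11 mitotic genes, 4 rose (Mki67, Top2a, Bub1 and Tpx2) and 1 fell (Aurka) in hIAPP islets, 45.5% called beside 65.5% of all genes. In mIAPP islets 1 rose (Mki67), 9.09% beside 47.5%. Under 10% of mitochondrial counts 0 of the 11 passed in either genotype. Mki67, the proliferation marker that coats mitotic chromosomes (chromosome 7, 135689784 to 135716361), ran from 3.93 over 8.25 to 12.1 CPM at 11.1 mM and from 8.53 over 12.2 to 20.1 CPM at 16.7 mM in hIAPP islets. In mIAPP islets it ran from 5.2 over 6.95 to 10.2 and from 4.92 over 8.61 to 22.3 CPM. Both pairs of groups overlapped. The rise was 0.62 ± 0.16 in hIAPP (adjusted p = 0.0017) and 0.49 ± 0.16 in mIAPP islets (edgeR adjusted p = 0.016). Without set 2 or set 4 the mIAPP change of Mki67 missed the threshold, at 0.365 and 0.39 (adjusted p = 0.089 and 0.062).

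Top2a, the topoisomerase that untangles sister chromatids, rose in hIAPP islets from a mean of 8.48 to 12 CPM (0.46 ± 0.19, adjusted p = 0.039), a call that was lost without set 1, 2, 4 or 5 (0.34 to 0.44, adjusted p = 0.07 to 0.16). Tpx2, a spindle assembly factor, rose from 2.57 to 3.97 CPM (0.61 ± 0.20, adjusted p = 0.0089). Bub1, a spindle checkpoint kinase, rose by 1.46 ± 0.44 (adjusted p = 0.0049) from the lowest levels of the group: 0 to 0.84 CPM at 11.1 mM and 0.71 to 1.6 CPM at 16.7 mM, where a count of 0 allows a true level of up to 3 counts in that library. Aurka, the spindle pole kinase, fell from 4.99 to 3.87 CPM (-0.31 ± 0.14, adjusted p = 0.046). This call was lost without set 1, 2, 6, 7 or 8 (-0.34 to -0.21, adjusted p = 0.054 to 0.13). With the mitochondrial covariate 0 of the mitotic genes passed in hIAPP islets and 1, Plk1, fell in mIAPP islets (-0.655, adjusted p = 0.035), and in hIAPP islets the changes of Mki67 and Tpx2 turned to -0.025 and -0.067.

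Genes of mitosis that passed in neither genotype included Foxm1, the factor that drives many of them (0.14 ± 0.21 and 0.07 ± 0.21), Aurkb and Birc5 of the chromosomal passenger complex (changes from -0.38 to 0.23), the checkpoint gene Bub1b (-0.02 ± 0.18 and 0.24 ± 0.18), the anaphase activator Cdc20 (0.55 ± 0.25 and 0.41 ± 0.26) and the Polo kinase gene Plk1 (0.25 ± 0.23 and -0.38 ± 0.23). Group means lay between 0.91 (Aurkb) and 2.75 CPM (Foxm1). Cdc20 shares 25.5% and Plk1 14.8% of their 31-base stretches with other genes, Plk1 with Plk-ps1, which is listed at 0.77 CPM beside 1.89 for Plk1.

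The mitotic genes varied widely between experiment sets. At 16.7 mM their summed level in sets 1 to 8 was 36.5, 79.5, 24.3, 67, 34.1, 27.9, 36.8 and 35.3 CPM in mIAPP islets. It was 56.4, 68, 34.8, 58.3, 33.9, 36.3, 43.9 and 38.5 CPM in hIAPP islets. Sets 2 and 4 were thus high in both genotypes, and set 1 was high in hIAPP islets. In mIAPP islets sets 2 and 4 held the top 2 values for 9 of the 11 genes, and in hIAPP islets sets 1, 2 and 4 each ranked among the top 3 for 10 or 11 of them. At 11.1 mM the same sums spread less, from 24.4 to 46.3 CPM in hIAPP and from 26.9 to 41.8 CPM in mIAPP islets. Sets 4 and 2 were again the highest in mIAPP islets, at 41.8 and 38.4 CPM. In hIAPP islets set 8 was highest (46.3 CPM), followed by set 2 (42.7 CPM), and set 4 was at 36.2 CPM. Sets 2 and 4, with set 8, were also the sets with low Y-linked transcripts at 16.7 mM. These were between 8.14 and 27.4 CPM against 85.3 to 178 CPM in the other sets, and set 8 was not high in mitotic genes at 16.7 mM. The part of this difference between sets in the mitotic level was not tested.

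Sets 2 and 4 were singled out after their values were seen. With both left out, 13 of the 18 genes called in hIAPP islets and 8 of the 14 in mIAPP islets were called again: 3 of the 11 mitotic genes rose in hIAPP islets (Mki67, Bub1 and Tpx2) and 0 in mIAPP islets. Ccnd1, Ccne1, Mcm2, Mcm4, Pcna and Rrm2 rose, and Mcm7 fell, in both genotypes without these sets. Between the genotypes at 16.7 mM, 4 of the 31 genes were then called, beside 2099 of 16489 genes tested. These were Cdk4 and Pcna as before, and Mki67 and Tpx2 in addition, while Ccnd2 was not called. For glucose, the same fit called 13 and 8 of the 31 in hIAPP and mIAPP islets, beside 9548 and 5792 of 16489 genes. The 2 mitotic genes whose RefSeq entries hold no exon base in the printed stretch and more than 1 CHR word are shown because both rose in hIAPP islets, with the same capitals.
Mki67, chr7:135716380-135716529, minus strand: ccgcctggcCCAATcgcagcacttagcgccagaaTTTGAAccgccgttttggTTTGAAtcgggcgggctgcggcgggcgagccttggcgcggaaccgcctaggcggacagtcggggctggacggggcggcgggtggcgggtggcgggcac
Top2a, chr11:99024190-99024339, minus strand: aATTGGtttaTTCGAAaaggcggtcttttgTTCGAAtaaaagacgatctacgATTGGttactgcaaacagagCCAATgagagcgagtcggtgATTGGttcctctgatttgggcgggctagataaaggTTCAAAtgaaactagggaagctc
Of the 8 mitotic genes with a RefSeq entry, 4 held a CHR word in 250 bases, 7 a CCAAT word and 0 an E2F word. The 4 with a CHR word were Mki67, Top2a, Bub1b and Cdc20, and Bub1b and Cdc20 passed for glucose in neither genotype. Bub1, which rose in hIAPP islets, held 0 CHR words. Whether these words go with the rise was not tested.

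**Figure D4:**
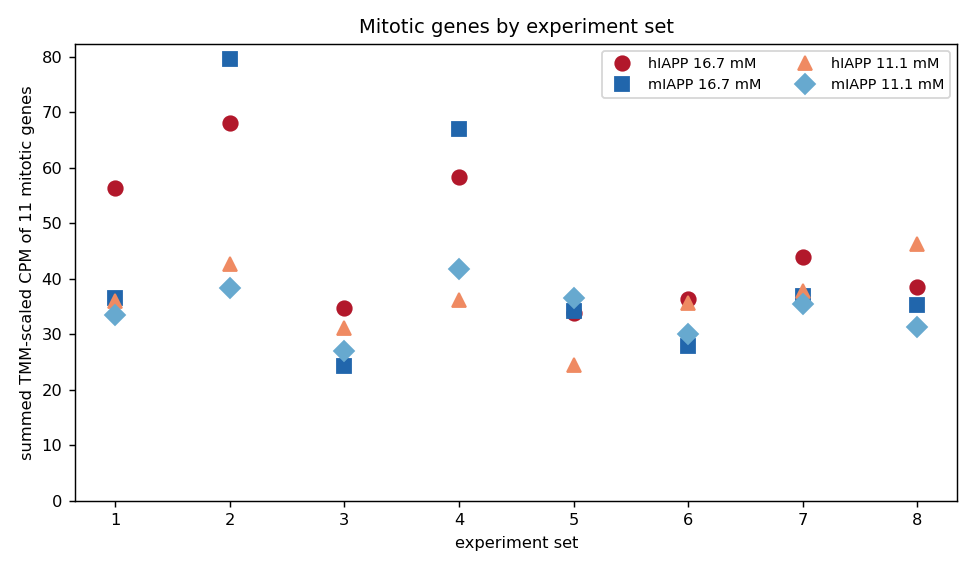
Summed TMM-scaled CPM of the 11 mitotic genes (vertical axis, from 0) by experiment set (horizontal axis), 1 point per library and 1 symbol per group. Sets 2 and 4 are high at 16.7 mM in both genotypes (58.3 to 79.5 CPM), and no 11.1 mM library is above 46.3 CPM.

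Few of these genes differed between the genotypes. At 16.7 mM glucose Pcna was higher and Ccnd2 and Cdk4 were lower in hIAPP than in mIAPP islets, which is 3 of 31 genes (9.68%) beside 20.5% of all genes tested, of which 9.27% were higher and 11.2% lower. Pcna was 1.46-fold higher (0.55 ± 0.13, adjusted p = 0.0057), with the lowest hIAPP library at 43.7 and the highest mIAPP library at 42.5 CPM; Pcna was the 1 gene of the 31 apart between the genotypes (3.23%), beside 2.98% of all genes, 2.39% higher and 0.584% lower. Ccnd2 differed by -0.33 ± 0.10 (adjusted p = 0.021) and Cdk4 by -0.38 ± 0.10 (adjusted p = 0.0094), each lower in 8 of 8 sets with overlapping ranges. The Ccnd2 call was lost without set 1, 4 or 8 (-0.34 to -0.25, adjusted p = 0.051 to 0.061). Mcm6 was higher in 8 of 8 sets as well, at 15.3 against 12.3 CPM in the mean, and missed the threshold (0.31 ± 0.12, adjusted p = 0.054). Aurka missed it too (-0.35 ± 0.13, adjusted p = 0.06).

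Cell markers also differed between the genotypes at 16.7 mM. In hIAPP islets 7 of 11 beta cell and 9 of 14 endothelial markers were lower (63.6% and 64.3%, beside 11.2% of all genes). Of 7 ductal markers, 3 were higher (42.9%, beside 9.27%). The beta cell list names Iapp, for which a lower count would follow from the replaced gene. The part of these cell markers in the 3 differences was not tested. The mitochondrial share was lower in hIAPP islets at 16.7 mM as well. With that share as a covariate Pcna was at 0.25, Ccnd2 at -0.37 and Cdk4 at -0.16, and in libraries under 10% of it they were at 0.40, -0.29 and -0.29. Ccnd2 thus differed by as much with the covariate, all 3 kept their sign, and 0 of 31 genes was called in either setting, where 4.58% and 6.61% of all genes were. Without the replicate block 1 gene, Cdk4, was called, and DESeq2 called 5, with Aurka and Mcm6 added. The median log2 fold change of the 31 genes at 16.7 mM was 0.17, beside -0.01 for all genes.

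At 11.1 mM glucose edgeR called 0 of the 31 genes different between the genotypes, beside 0.128% of all genes (0.11% higher and 0.0183% lower), and DESeq2 also called 0. One gene, Bub1b, had an unadjusted p under 0.05: it was higher in hIAPP islets in 8 of 8 sets (0.56 ± 0.18, adjusted p = 0.72). For the genotype by glucose interaction, edgeR and DESeq2 again called 0 of 31 genes, where 3.12% of all genes passed with edgeR (2.17% positive, 0.95% negative). Ccnd2 alone had an unadjusted p under 0.05 there. Pcna, with an interaction of 0.34 ± 0.19 (adjusted p = 0.35), and Cdk4, with -0.24 ± 0.14 (adjusted p = 0.37), are therefore not shown to respond differently to glucose in the 2 genotypes.

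**Figure D5:**
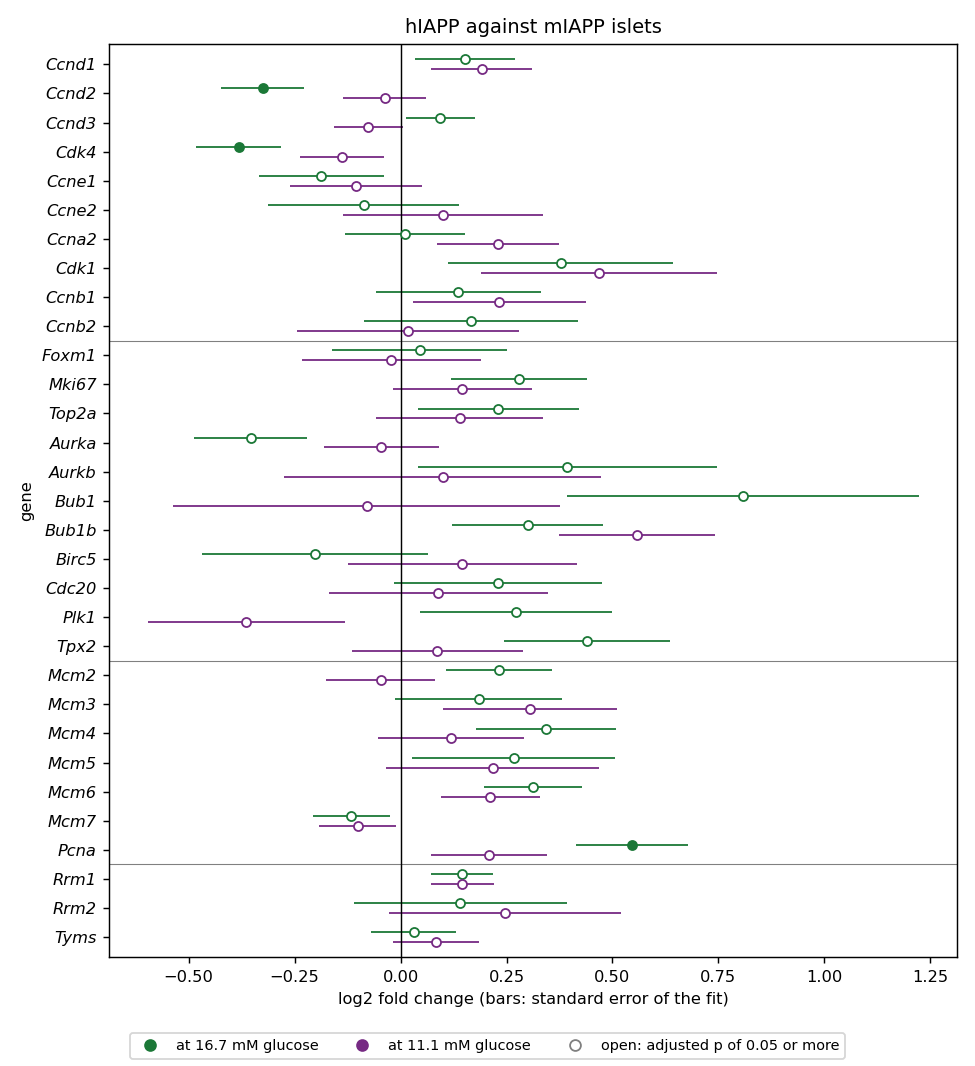
Log2 fold change of hIAPP against mIAPP islets (horizontal axis) for each gene (vertical axis), at 16.7 mM (green) and 11.1 mM glucose (purple), with the standard error of the fit as bars. The 3 filled points, Ccnd2, Cdk4 and Pcna at 16.7 mM, passed an adjusted p of 0.05, and no point at 11.1 mM did.

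Inhibitors of the CDKs moved in both directions with glucose. Of 7 genes, 2 rose and 4 fell in hIAPP islets, and 1 rose and 4 fell in mIAPP islets. The falls are 57.1% in each, beside 33.3% and 22.7% of all genes. Both with the mitochondrial covariate and under 10% of mitochondrial counts, 0 rose and 2 fell in hIAPP islets and 0 rose and 3 fell in mIAPP islets. Cdkn1c had the largest change: 1.22, 1.77 and 4.66 CPM (lowest, median and highest) at 11.1 mM and 0.32, 0.42 and 0.59 CPM at 16.7 mM in hIAPP islets, with no overlap. Its log2 change was -2.17 ± 0.24 in hIAPP (adjusted p = 3.75e-08) and -1.24 ± 0.24 in mIAPP islets (edgeR adjusted p = 0.00013). Falls were also seen for Cdkn2d (-0.81 ± 0.10 and -0.48 ± 0.10), Cdkn2b (-0.60 ± 0.13 and -0.44 ± 0.13) and Cdkn2a, whose product accumulates in ageing beta cells (-0.72 ± 0.30 and -0.89 ± 0.30, from levels under 1 CPM). Cdkn2c rose by 0.41 ± 0.16 and 0.52 ± 0.16. Cdkn1a rose in hIAPP islets (0.43 ± 0.09, edgeR adjusted p = 0.0003) and was at 0.21 ± 0.09 in mIAPP islets (edgeR adjusted p = 0.07). Cdkn1b did not pass, at 0.24 ± 0.13 and 0.28 ± 0.14. At 16.7 mM Cdkn1c (-0.75 ± 0.25, adjusted p = 0.033) and Cdkn2d (-0.37 ± 0.10, adjusted p = 0.014) were lower in hIAPP than in mIAPP islets (0 of the 7 with the covariate and 1 under 10%), and 0 of the 7 passed for the interaction, where the adjusted p of Cdkn1c was 0.13.

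The E2F, retinoblastoma and DREAM complex genes, whose products regulate many cell cycle genes, numbered 20: 12 rose and 2 fell in hIAPP islets, and 12 rose and 1 fell in mIAPP islets. The shares called, 70% and 65%, compare with 65.5% and 47.5% of all genes, and the 60% that rose in each with 32.2% and 24.9%. Of the 20, 0 passed in hIAPP islets and 7 rose in mIAPP islets with the mitochondrial covariate, and under 10% of mitochondrial counts 2 rose and 1 fell in hIAPP and 7 rose and 1 fell in mIAPP islets. The genes that fell, named after their values were seen, were Mybl2, the B-Myb factor of late cell cycle genes, in both genotypes (-1.07 ± 0.20, adjusted p = 6.12e-05, and -0.58 ± 0.20, adjusted p = 0.0199), and Lin37 of the DREAM core in hIAPP islets (-0.50 ± 0.14, adjusted p = 0.0028). Rbl1, a relative of the retinoblastoma protein, rose by 1.18 ± 0.17 and 0.87 ± 0.17, Tfdp1, an E2F partner, by 0.95 ± 0.14 and 0.73 ± 0.14, and Lin54 of the DREAM core by 0.93 ± 0.17 and 0.75 ± 0.17. E2f1 and Rb1 rose less, E2f1 by 0.29 ± 0.08 and 0.32 ± 0.08 and Rb1 by 0.41 ± 0.14 and 0.39 ± 0.14. Of 6 tested genes in a list of other CDKs and cyclins, which includes Ccne1, 3 rose and 1 fell in hIAPP islets (50% and 16.7%). In mIAPP islets 3 rose and 0 fell (50% and 0%). Of all genes, 32.2% and 24.9% rose and 33.3% and 22.7% fell. In the CDK-activating kinase, Cdk7 rose by 0.63 ± 0.08 and 0.50 ± 0.08 and Ccnh by 0.62 ± 0.11 and 0.80 ± 0.12. Mnat1 fell in hIAPP islets (-0.48 ± 0.11, edgeR adjusted p = 0.00053) and was at 0.01 ± 0.11 in mIAPP islets. The interaction of Mnat1 did not pass (edgeR adjusted p = 0.083).

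Beyond the 31 genes, 45 other genes of S phase were followed. In hIAPP islets 14 rose and 12 fell, and in mIAPP islets 13 rose and 7 fell, with a median of 0.09 and 0.11. The shares called, 57.8% and 44.4%, were no larger than the 65.5% and 47.5% of all genes. Rises took 31.1% and 28.9%, beside 32.2% and 24.9% of all genes. Falls took 26.7% and 15.6%, beside 33.3% and 22.7%. Fitted with the covariate, 2 rose and 1 fell in hIAPP and 8 rose and 2 fell in mIAPP islets, and under 10% of mitochondrial counts 4 rose and 0 fell, and 11 rose and 1 fell. Fen1, the flap endonuclease of Okazaki fragments, rose by 0.89 ± 0.08 and 0.94 ± 0.08 in 8 of 8 sets each, and Pold2, a subunit of polymerase delta, by 0.63 ± 0.11 and 0.64 ± 0.11. Dut, which clears dUTP, fell in both (-0.52 ± 0.09 and -0.26 ± 0.09). Dnmt1, the maintenance DNA methyltransferase, differed in its glucose response between the genotypes (interaction 0.73 ± 0.13, adjusted p = 0.0012): it went from 26.9 to 41.8 CPM in hIAPP and from 30.8 to 28.8 CPM in mIAPP islets. Orc6 of the origin recognition complex did so in the other direction (-0.67 ± 0.19, adjusted p = 0.047), from 24.3 to 15.4 CPM in hIAPP and from 23.1 to 23 CPM in mIAPP islets. With the covariate Dnmt1 still passed (0.53, adjusted p = 0.028) and Orc6 did not (-0.345, adjusted p = 0.47), and under 10% of mitochondrial counts neither did (0.85 and -0.91, adjusted p = 0.11 and 0.2).

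Of 80 other genes of G2 and mitosis, 13 rose and 7 fell in hIAPP and 10 rose and 8 fell in mIAPP islets. The shares called, 25% and 22.5%, were below the 65.5% and 47.5% of all genes. Rises took 16.2% and 12.5%, beside 32.2% and 24.9%, and falls 8.75% and 10%, beside 33.3% and 22.7%. Fitted with the covariate, 4 rose and 4 fell in hIAPP and 6 rose and 4 fell in mIAPP islets, and under 10% of mitochondrial counts 5 rose and 3 fell, and 10 rose and 4 fell. Spc25, a kinetochore subunit, rose by 1.29 ± 0.11 and 1.61 ± 0.11, Cdc25a, a phosphatase that activates CDKs, by 0.93 ± 0.07 and 0.79 ± 0.07, and Cks1b, a CDK-binding protein, by 1.26 ± 0.12 and 1.05 ± 0.12. Kif22, a chromosome-bound kinesin, fell (-0.83 ± 0.12 and -0.68 ± 0.12). All of these changes were in 8 of 8 sets.

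Markers of endothelial cells and macrophages fell with glucose in the same libraries, where 33.3% of all genes fell in hIAPP and 22.7% in mIAPP islets. All 14 endothelial markers fell in hIAPP islets (100%) and 9 of 14 in mIAPP islets (64.3%). Their summed level ran from 101 to 270 CPM at 11.1 mM and from 29.4 to 84.6 CPM at 16.7 mM in hIAPP islets, and from 93.6 to 276 and 56.7 to 193 CPM in mIAPP islets. Of 12 macrophage markers 8 and 9 fell (66.7% and 75%), with a summed median going from 376 to 144 CPM in hIAPP and from 304 to 160 CPM in mIAPP islets. Stellate cell and fibroblast markers fell for 8 of 10 in hIAPP (80%) and 3 of 10 in mIAPP islets (30%). Ductal markers were mixed, with 3 up and 2 down of 7 tested in hIAPP islets and a summed median of 864 CPM at 16.7 mM beside 505 at 11.1 mM. In mIAPP islets 2 ductal markers rose and 1 fell. Of 10 acinar markers tested, 1 rose and 1 fell in hIAPP islets and 1 fell in mIAPP islets, with summed medians from 43.3 to 57.9 CPM in the 4 groups. Of 6 lymphocyte markers tested, 5 and 2 fell (83.3% and 33.3%). Of the endothelial markers, 9 fell in each genotype with the covariate, and under 10% of mitochondrial counts 13 fell in hIAPP and 3 in mIAPP islets. For macrophage markers the counts were 8 and 9 with the covariate and 8 and 10 under 10%. Of the markers in these lists, 1, the acinar Prss1, was at 0 throughout a group (hIAPP at 11.1 mM). The part of these cells in the cell cycle results was not tested.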

How the data were processed

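Gene-level expected counts deposited by the authors were used for 32 libraries of poly(A) RNA, 8 per group; kallisto 0.45.0, bcl2fastq 1.8.4 and build GRCm38 are named, per the submitters' processing notes. The values are whole numbers; how transcripts were summed and rounded, and whether counting used the strand that the directional kit keeps, is not given in the sources used here. The number of columns without a sample was 0. Gene positions came from GENCODE annotation of GRCm38.

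Counts were analysed with edgeR 4.0.16 in R 4.3.3 (TMM scaling, filter on low counts by group, robust quasi-likelihood fit) over all 32 libraries, with group and experiment set as terms and 21 residual degrees of freedom. P-values were Benjamini-Hochberg adjusted over 16428 genes, with a threshold of 0.05 and no fold minimum. The method was tested on simulated counts. The 5 comparisons were genotype at each glucose level, glucose in each genotype, and their interaction. Sets pair the libraries because, per the labels' protocols, each set held all 4 groups; same-set deviations from the group means correlated at 0.145 to 0.32 on average, with single sets from -0.174 upward. Alternatives were no set term, DESeq2 1.42.0, other filters, TMM without mitochondrial genes, the mitochondrial share as covariate, libraries under 10% of it, and leaving out sets or single libraries.

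All 31 genes could be named; outside them, at most 4 genes per list and comparison with the smallest p past the threshold, the 7 CDK inhibitors, E2f1, Rb1, Myc and Irs2. Members and lists were chosen with earlier results of these data known.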

Additional observations from a re-analysis of the deposited data

Results flagged for a closer look

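In 3 of 124 combinations of a gene and a group, 1 library stood apart from the other 7 by a gap larger than Dixon's limit for groups of 8; chance gives about 1 in 20. Ccna2 was at 9.326 CPM in the mIAPP library of set 2 at 16.7 mM, where the nearest other library was at 6.119 CPM. Cdk1 was at 6.086 CPM in the same library, with the nearest at 3.505 CPM. Aurka was at 8.921 CPM in the hIAPP library of set 7 at 11.1 mM, with the nearest at 5.397 CPM; without set 7 the glucose change of Aurka in hIAPP islets was -0.21 (edgeR adjusted p = 0.128).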

How the results depend on the processing

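For the 31 genes, the count called between genotypes at 16.7 mM (3) was 1 with no replicate block, 5 with DESeq2, 0 with the mitochondrial covariate and 0 in libraries under 10% mitochondrial counts. For glucose in hIAPP islets (18) it was 9 with a minimum mean of 5 CPM, which tests fewer genes, 2 with the covariate and 7 under 10%. For glucose in mIAPP islets (14) it was 9, 8 and 9 in those settings, and 8 without sets 2 and 4, a setting chosen after seeing the data. Of the 18 calls in hIAPP islets the covariate turned the sign of 4: Mki67 to -0.025, Tpx2 to -0.067, Mcm3 to -0.437 and Mcm5 to -0.114. The cause was not tested.

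Over all genes, the count between genotypes at 16.7 mM (3371) was 1301 with no replicate block, 752 with the covariate, 2108 without the mIAPP library of set 7, 1133 under 10% and 2099 without sets 2 and 4, and ran from 1623 to 3842 leaving out 1 set. At 11.1 mM (21) it was 35 with DESeq2, 12 at 5 CPM and 10 under 10%. For glucose in hIAPP islets (10768) it was 3181 with the covariate and 3881 under 10%, and in mIAPP islets (7805) 5181 under 10%. The interaction count (513) was 196 with no replicate block, 959 with DESeq2, 260 with the covariate, 7 under 10%, 165 without sets 2 and 4, and 239 to 558 leaving out 1 set.

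With no replicate block, 147 of 155 gene results kept their side of the threshold and 8 lost it. Leaving out 1 set at a time, 1203 values kept their side of the threshold, 24 lost the call and 13 gained it. Direction was compared only for values called with all sets or with 1 left out, and 0 of these reversed. Low counts limit Bub1 and Aurkb, which were at 0 in single libraries.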

Other observations

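Known regulators of beta cell proliferation moved with glucose as well: of 32 tested, 14 rose and 7 fell in hIAPP islets and 9 rose and 8 fell in mIAPP islets (edgeR, adjusted p under 0.05), 65.6% and 53.1% beside 65.5% and 47.5% of all genes. With the mitochondrial share as a covariate 4 rose and 8 fell in hIAPP and 6 rose and 9 fell in mIAPP islets; in libraries under 10% of it, 5 rose and 8 fell, and 6 rose and 8 fell. Irs2, the insulin receptor substrate tied to beta cell growth, went from 22.8 to 110 CPM in hIAPP islets (log2 2.31 ± 0.18, SE) and from 22.4 to 64 CPM in mIAPP islets (1.54 ± 0.17), with an interaction of 0.78 ± 0.24 that did not pass (adjusted p = 0.073). Igf1r, the IGF1 receptor, rose more in hIAPP islets, from 147 to 482 CPM, than in mIAPP islets, from 139 to 188 CPM (interaction 1.30 ± 0.16, edgeR adjusted p = 2.71e-05; 1.205 and 0.00055 with the covariate, 1.30 and 0.087 under 10%). Mlxipl, the glucose-responsive factor ChREBP, fell from 655 to 160 CPM and from 699 to 280 CPM (interaction -0.72 ± 0.17, edgeR adjusted p = 0.018; -0.43 and 0.3 with the covariate, -0.53 and 0.39 under 10%).

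Nr4a1, an immediate early nuclear receptor, rose from 8.17 to 37.4 CPM in hIAPP and from 4.12 to 42.7 CPM in mIAPP islets (interaction -1.11 ± 0.26, edgeR adjusted p = 0.015; -1.11 and 0.068 with the covariate, -0.81 and 0.44 under 10%). It was the 1 gene of the 32 that differed between genotypes at 11.1 mM (0.96 ± 0.19, adjusted p = 0.031). Myc rose in mIAPP islets (0.79 ± 0.21, adjusted p = 0.0033) and was at 0.36 ± 0.21 in hIAPP islets (adjusted p = 0.13), and the difference did not pass (adjusted p = 0.46). Gcgr, the glucagon receptor, stood at 39.8 CPM in hIAPP and 80.8 CPM in mIAPP islets at the higher glucose level, lower in 8 of 8 sets (-0.94 ± 0.16, adjusted p = 0.00015). The fall in endothelial and macrophage markers and the mitochondrial share moved with glucose in the same libraries, and their part in these values was not tested.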
